A study of Mus musculus with 8 samples.

Results

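The 56 genes described here encode homeobox transcription factors outside the Hox and Pax families and the family of Six2. They were taken by gene symbol from the expression table of 2 mouse kidney cell lines, and all 56 were found among its 55558 gene features. The lines, mK3 and mK4, were both recorded as wild type and untreated and were grown in the same serum-supplemented DMEM; the labels describe mK3 as uninduced metanephric mesenchyme and mK4 as metanephric mesenchyme that has differentiated towards epithelium. Each line had 3 ribosomal RNA-depleted, strand-specific RNA libraries and 1 ATAC-seq library, ATAC-seq being an assay in which a transposase cuts accessible chromatin. The labels give no animal, age or passage, each line stands for its state alone, and nothing says that the 3 libraries came from separate cultures, and the p-values therefore cover only the spread between these libraries.

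The libraries held 137559391 to 152952351 counts over all features, and 133899125 to 146187601 over genes. Log-scale correlations across genes were 0.982 to 0.986 within a line and 0.877 to 0.883 between lines. The 7 nephron progenitor markers summed to 35.2 to 36.4 CPM (counts scaled to the library total) in the mK3 libraries and 183 to 238 CPM in the mK4 libraries. Of the 5 tested, Eya1 and Sall1 were called higher in mK4, Osr1 and Six2 lower, and Gdnf was not called. Most of the mK4 sum was Eya1, at 10.1 CPM in mK3 against 187 CPM in mK4, while Six2 was at 0.338 and 0 CPM and Cited1 at 0.0139 and 0.0241 CPM. All 5 of the 7 epithelial differentiation markers that were tested were higher in mK4, and the summed level of the 7 was 0.733 to 1.97 CPM in the mK3 libraries and 1790 to 1870 CPM in the mK4 libraries, most of it Cdh6, whereas Cdh1 reached only 0.275 CPM and Epcam was at 0 in mK4. Leukocyte markers summed to 1.08 to 1.84 CPM in mK3 against 1.2 to 1.67 CPM in mK4. Neuron and glia markers summed to 60.1 to 71.8 CPM in mK3 against 39.7 to 44.7 CPM in mK4; Syt1, Stmn2 and Elavl3 were called lower in mK4 and Tubb3 higher. Syt1 fell from 36.3 to 0.0806 CPM, Tubb3 was at 27.0 CPM in mK3 against 41.2 CPM in mK4, and Snap25 was at 0 in every library. Stroma markers summed to 820 to 1110 CPM in mK3 and 251 to 616 CPM in mK4, with Pdgfrb called lower in mK4, Foxd1 and Tbx18 higher, Ntn1 not called and Tcf21 at 0 in every library. Endothelial markers summed to 3.48 to 4.63 and 7.37 to 8.17 CPM and podocyte markers to 1.87 to 3.41 and 52.4 to 70.6 CPM in mK3 and mK4. The part of such marker differences in the results below was not tested.

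A homeobox gene encodes a homeodomain, a small helical fold that reads a short AT-rich DNA core, and its family is set by what accompanies that fold. TALE proteins (Irx, Meis, Pknox, Tgif and Pbx) carry extra residues between the first helices of the homeodomain, and the Meis, Pknox and Pbx groups bind DNA as partners of one another and of Hox proteins. LIM proteins add zinc-binding LIM domains that recruit the cofactor Ldb1, and POU proteins add a second DNA-binding domain. In the kidney, Lhx1, Irx1, Irx2, Irx3 and Pou3f3 are known from the developing nephron, Emx2 from the ureteric bud and Meis1 from the stroma.

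The starts of 4 members are shown first because they are the called members with the greatest changes in RNA that also had an ATAC peak over the start. Sequences are from RefSeq, build GRCm38.p6, on the strand of the gene, 250 bases before to 50 after the listed start, and capitals mark the bases inside the peak of the line in which the gene's RNA was higher. Pou3f3 lies at chr1:42695518-42695817 on the plus strand, and Irx2 at chr13:72628570-72628869 on the plus strand, both with RNA higher in mK4. Msx1 lies at chr5:37824536-37824835 and Lhx6 at chr2:36105359-36105658, both on the minus strand and with RNA higher in mK3.
Pou3f3: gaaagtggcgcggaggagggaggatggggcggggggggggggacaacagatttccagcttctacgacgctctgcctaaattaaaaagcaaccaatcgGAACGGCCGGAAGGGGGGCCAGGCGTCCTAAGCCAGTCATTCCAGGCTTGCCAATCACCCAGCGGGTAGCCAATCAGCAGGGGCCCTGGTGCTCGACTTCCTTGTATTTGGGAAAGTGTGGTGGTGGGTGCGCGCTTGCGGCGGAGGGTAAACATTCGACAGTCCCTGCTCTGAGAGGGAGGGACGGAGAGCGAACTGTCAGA
Irx2: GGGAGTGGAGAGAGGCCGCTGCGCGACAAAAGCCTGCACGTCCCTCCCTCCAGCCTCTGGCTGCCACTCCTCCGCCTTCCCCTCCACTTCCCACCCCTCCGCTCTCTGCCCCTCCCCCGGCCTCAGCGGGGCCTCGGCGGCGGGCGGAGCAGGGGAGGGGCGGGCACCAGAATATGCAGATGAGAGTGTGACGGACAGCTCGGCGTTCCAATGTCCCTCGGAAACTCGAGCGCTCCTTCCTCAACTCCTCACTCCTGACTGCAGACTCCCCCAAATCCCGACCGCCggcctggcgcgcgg
Msx1: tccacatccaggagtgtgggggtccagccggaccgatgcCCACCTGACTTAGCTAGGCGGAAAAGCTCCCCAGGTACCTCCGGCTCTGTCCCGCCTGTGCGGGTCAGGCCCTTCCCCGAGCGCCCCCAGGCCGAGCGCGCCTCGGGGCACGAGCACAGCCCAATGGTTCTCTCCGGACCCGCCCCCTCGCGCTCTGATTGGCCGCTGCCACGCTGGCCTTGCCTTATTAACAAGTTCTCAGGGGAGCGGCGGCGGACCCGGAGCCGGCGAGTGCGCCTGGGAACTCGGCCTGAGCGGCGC
Lhx6: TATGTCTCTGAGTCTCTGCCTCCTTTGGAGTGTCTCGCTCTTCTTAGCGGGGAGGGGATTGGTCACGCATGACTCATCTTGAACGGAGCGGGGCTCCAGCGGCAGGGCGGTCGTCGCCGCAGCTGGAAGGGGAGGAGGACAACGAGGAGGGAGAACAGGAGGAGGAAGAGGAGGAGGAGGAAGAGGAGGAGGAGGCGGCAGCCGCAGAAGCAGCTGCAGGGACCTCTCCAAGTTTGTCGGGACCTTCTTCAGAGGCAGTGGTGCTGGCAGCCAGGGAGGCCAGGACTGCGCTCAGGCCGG
Capitals run from base 98 to base 300 at Pou3f3, 1 to 286 at Irx2, 40 to 300 at Msx1 and 1 to 300 at Lhx6. These windows were rich in G and C, at 60.3% for Pou3f3, 69.0% for Irx2, 70.0% for Msx1 and 63.3% for Lhx6. Over the 41 members with a start in the RefSeq table, the median of the first listed window was 65.0% G and C with 24 CpG dinucleotides, against 56.3% and 13 over all 17492 protein-coding genes with a listed start. Motifs were searched on both strands, and a gene was counted when any of its listed windows held the letters. The homeodomain core TAATTA was found for 3 of the 41 members (Emx2, Msx2 and Uncx) and for 5.37% of all 17492 genes. The TALE core TGACAG was found for 8 members, at base 293 in Pou3f3, and for 21.2% of all genes, or for 5 members and 18.8% in the first listed window alone. The octamer ATGCAAAT, read by POU factors, was found for 1 member (Evx1) and 1.90% of all genes, and TGATTNAT, a Pbx-Hox site, for 2 (Lhx4 and Tgif1) and 3.25%. Matches describe sequence only.

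Many of these regulators differed between the lines. Of the 56 members, 13 had no count in any library, 43 had at least 1 count, and 34 passed the filter on low counts and were tested. Of the 34, 14 were called higher in mK4 and 9 lower (edgeR's quasi-likelihood test, Benjamini-Hochberg adjusted p under 0.05 over all 20405 tested genes), and 11 were not called. These are bulk libraries, in which fewer cells of a type and less RNA per cell cannot be told apart. Over all tested genes, 20.8% were called higher and 19.5% lower. All 14 genes called higher except Tgif1 differed by at least 2-fold, as did all 9 called lower; over all tested genes, 13.2% were called with at least a 2-fold difference upward and 10.2% downward. The median log2 difference of the tested members was 0.35, with genes at 0 in a line set at their bound, against 0.02 for all tested genes. Called or not, 13 members were at 0 in all 3 mK3 libraries only, and 5 in all 3 mK4 libraries only. These include the called members Irx1, Lhx8, Isl1, Pou3f3, Alx1, Meox2 and Barx2, at 0 in mK3, and Lhx9 and Satb1, at 0 in mK4. The rest of them were not tested and had 3 (Cux2) to 90 (Lhx4) counts in all. The 13 and 5 include members not tested, so only the called members just named compare with the counts over tested genes. Over the 20405 tested genes, 484 were at 0 in all 3 mK3 libraries only and 418 in all 3 mK4 libraries only. For such genes the fold is given as "at least", with the silent line set to a floor of 3 counts in each library, which corresponds to 0.0209 to 0.0242 CPM in mK3 against 0.0197 to 0.022 CPM in mK4 and covers counting error only.

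**Figure D1:**
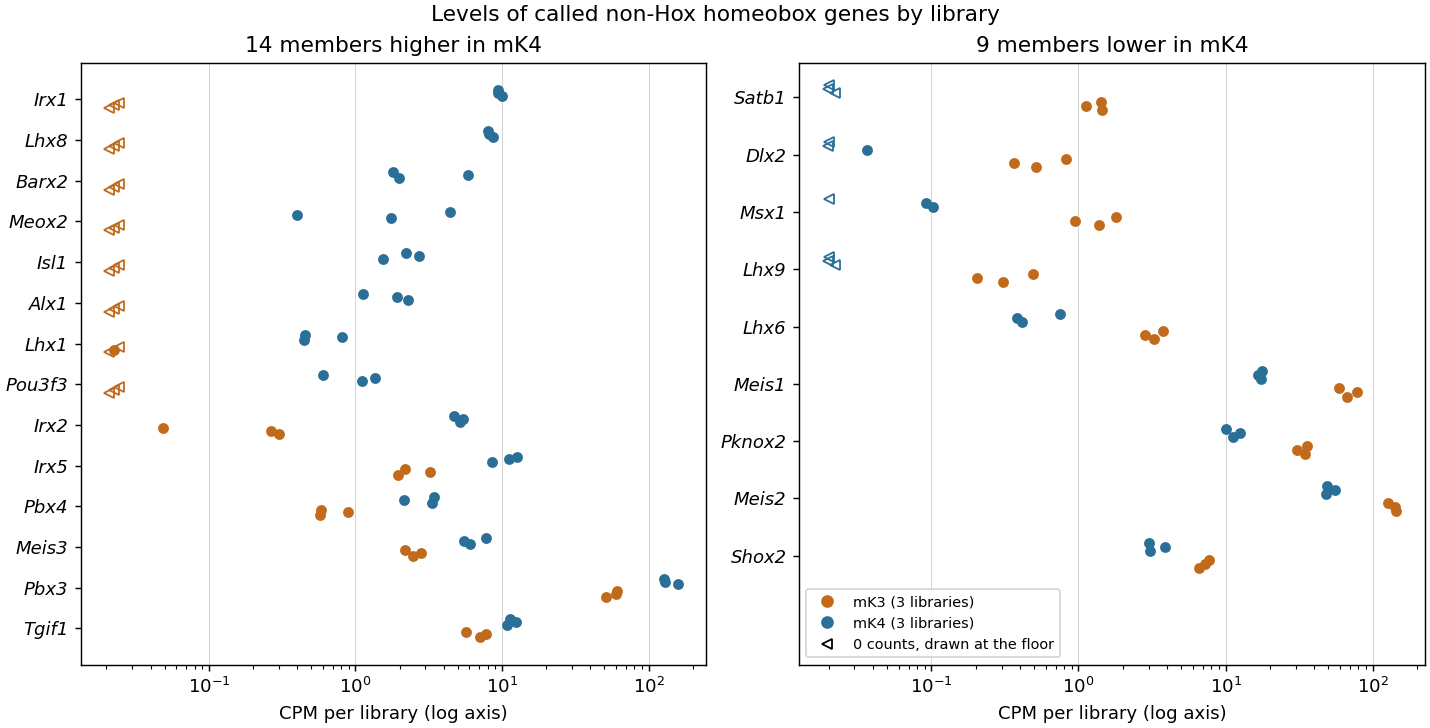
CPM of each called member in each of the 6 RNA libraries, on a log axis; filled points are libraries with counts and open triangles are libraries with 0 counts drawn at their floor of 3 counts. The 14 members higher in mK4 are on the left and the 9 lower on the right. The libraries of the lines overlap in none of them, but only called members are drawn. The share over all called genes was not computed, and tested members that were not called, such as Irx3 and Pou2f1, do overlap.

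Among the Iroquois genes, TALE factors that pattern the nephron along its length, 3 of the 4 tested genes were called higher in mK4, none lower. Irx1 had no count in any mK3 library and 1357, 1440 and 1413 counts in the mK4 libraries, or 9.61 ± 0.293 CPM (SD, n = 3). The mK4 libraries were close to one another, and Irx1 was at least 398-fold higher in mK4 (edgeR adjusted p = 7.33e-05). Irx2, the neighbour of Irx1 on chromosome 13, had 0.299, 0.264 and 0.0483 CPM in mK3 against 5.15, 5.43 and 4.70 CPM in mK4. Its log2 difference was 4.63 ± 0.67 (SE; edgeR adjusted p = 0.00252), with the low mK3 libraries well apart from the mK4 libraries. Irx5, of the other Iroquois cluster, on chromosome 8, had 1.95, 3.25 and 2.17 CPM in mK3 against 8.53, 11.2 and 12.6 CPM in mK4, a log2 difference of 2.13 ± 0.27 (edgeR adjusted p = 0.0014). Irx3, which lies in the same cluster as Irx5, was nearly silent, with 29, 0 and 0 counts in mK3 against 20, 0 and 19 in mK4, so that the libraries overlapped (edgeR adjusted p = 0.893). Irx4 and Irx6 had no count in any library.

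The Meis and Pknox genes, whose products load Pbx and Hox proteins onto DNA, divided by member. Meis1 had 66.6, 78.8 and 59.0 CPM in mK3 against 17.5, 16.6 and 17.6 CPM in mK4, a log2 difference of -1.99 ± 0.13 (edgeR adjusted p = 9.64e-05). Meis2 had 144, 142 and 128 CPM in mK3 against 47.8, 55.4 and 48.8 CPM in mK4, a log2 difference of -1.45 ± 0.09 (edgeR adjusted p = 9.73e-05). Both were lower in every mK4 library than in any mK3 library. Of the stroma markers, Pdgfrb was also called lower (log2 difference -1.91), whereas Foxd1 (0.92) and Tbx18 (0.57) were called higher. Ntn1 was not called and Tcf21 had no count in any library. The part of stroma markers in the Meis1 difference was not tested. Meis3, the third paralogue, went the other way, with 2.48, 2.78 and 2.19 CPM in mK3 against 6.07, 5.51 and 7.84 CPM in mK4, a log2 difference of 1.38 ± 0.21 (edgeR adjusted p = 0.00298). Pknox2 had 34.8, 30.5 and 35.8 CPM in mK3 against 11.3, 12.5 and 10.1 CPM in mK4, a log2 difference of -1.58 ± 0.13 (edgeR adjusted p = 0.000229). Its paralogue Pknox1 had 44.4 ± 7.57 CPM in mK3 against 55.4 ± 3.29 CPM in mK4 (SD, n = 3) and was not called, with a log2 difference of 0.32 ± 0.14 (edgeR adjusted p = 0.118), although its libraries did not overlap. Tgif1, a repressor that competes for Meis-type sites and restrains TGF-beta and retinoid responses, had 7.13, 7.81 and 5.65 CPM in mK3 against 10.9, 12.5 and 11.3 CPM in mK4. It was called higher, with a log2 difference of 0.75 ± 0.17 (edgeR adjusted p = 0.0129). Tgif2 was not called, with 2.62 ± 1.09 CPM in mK3 against 1.85 ± 0.359 CPM in mK4.

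The Pbx members, the partners of Meis and Hox proteins, included 2 genes that were higher in mK4 and none that was lower. Pbx3 had 51.0, 60.1 and 60.9 CPM in mK3 against 158, 129 and 127 CPM in mK4, a log2 difference of 1.27 ± 0.12 (edgeR adjusted p = 0.000466). Pbx4 had 0.571, 0.892 and 0.580 CPM in mK3 against 3.34, 2.16 and 3.46 CPM in mK4, a log2 difference of 2.13 ± 0.33 (edgeR adjusted p = 0.0033). In both genes every mK4 library was above every mK3 library. Pbx2 was not called by the main test, at 4.78 ± 0.353 CPM in mK3 against 6.20 ± 0.300 CPM in mK4 (SD, n = 3; edgeR adjusted p = 0.092), and DESeq2 called it higher (adjusted p = 0.0321, within a range of 0.0321 to 0.202 over the alternatives).

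**Figure D2:**
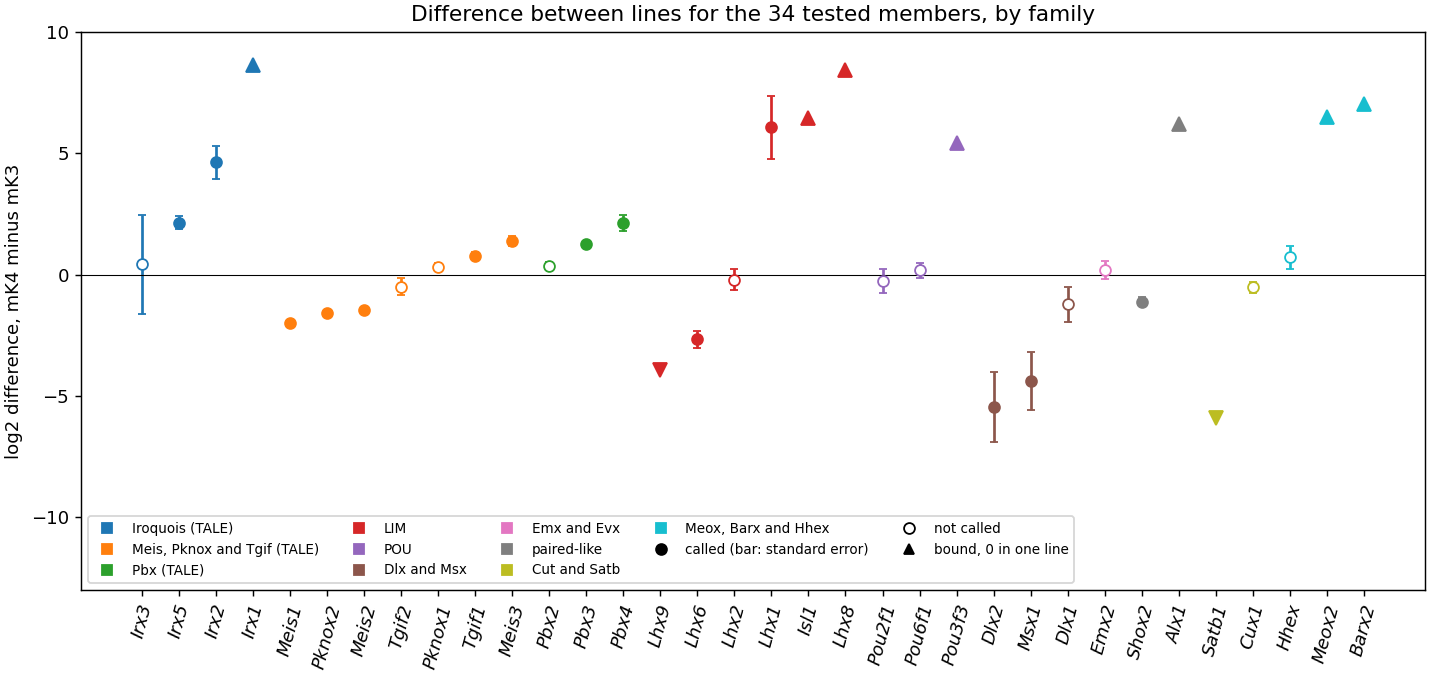
Log2 difference between mK4 and mK3 (positive when higher in mK4) for the 34 tested members, coloured by family; circles carry the standard error, open circles were not called, and triangles are bounds for genes at 0 in every library of a line. Iroquois and Pbx members lie above 0 (the standard error of Irx3 crosses it), while Meis, LIM and paired-like members lie on both sides.

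The LIM genes held changes in both directions, 3 higher and 2 lower in mK4 of 6 tested. Lhx8, a regulator known from forebrain cholinergic neurons, tooth and oocytes, had no count in mK3 and 1188, 1251 and 1214 counts in mK4, or 8.34 ± 0.325 CPM (SD, n = 3). It was at least 345-fold higher in mK4 (edgeR adjusted p = 8.42e-05). Isl1, a LIM factor of motor neurons, heart and pancreas, had no count in mK3 and 209, 412 and 334 in mK4, at least 89.2-fold higher (edgeR adjusted p = 0.000684). Lhx1, which is needed for the early nephron and marks the renal vesicle, had 0, 3 and 0 counts in mK3 against 61, 123 and 68 in mK4 (edgeR adjusted p = 0.0112). From the summed counts, 252 against 3, the Lhx1 ratio was 76.6 (95% exact interval 25.9 to 374, counting error only), and without mK3 replicate 2, which held the 3 counts, Lhx1 was at least 23.6-fold higher. In the other direction, Lhx6, a factor of cortical interneurons, had 3.26, 2.85 and 3.75 CPM in mK3 against 0.410, 0.381 and 0.753 CPM in mK4, a log2 difference of -2.67 ± 0.36 (edgeR adjusted p = 0.00183). Lhx9, known from the gonadal ridge, had 44, 27 and 61 counts in mK3 against none in mK4, at least 15.2-fold lower (edgeR adjusted p = 0.00526). Lhx2 was not called, with 2.31 ± 1.01 CPM in mK3 against 1.99 ± 0.548 CPM in mK4. Lhx4 was not tested, with no count in mK3 and 56, 34 and 0 in mK4, and Lhx3, Lhx5, Lmx1a and Lmx1b had no count in any library.

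Of the POU genes, 1 of 3 tested members was called. Pou3f3 (Brn1), which is needed for the loop of Henle and distal tubule, had no count in mK3 and 152, 208 and 90 counts in mK4, or 1.03 ± 0.391 CPM (SD, n = 3). It was at least 42.5-fold higher in mK4 (edgeR adjusted p = 0.00195). Pou2f1 (Oct1), a widely expressed octamer-binding factor, had 4229, 3869 and 3050 counts in mK3 against 1751, 1972 and 6533 in mK4. Its mK4 replicate 3 stood above all mK3 libraries while the other two mK4 libraries stood below them, and Pou2f1 was not called (log2 difference -0.26 ± 0.50, edgeR adjusted p = 0.721). Without mK4 replicate 3 the Pou2f1 log2 difference was -1.11 (edgeR adjusted p = 0.00332; over its alternatives the adjusted p ran from 0.00332 to 0.975). Pou6f1 was not called, with 8.43 ± 3.29 CPM in mK3 against 9.53 ± 0.445 CPM in mK4. Pou3f1 and Pou3f4 had 15 and 12 counts in all, and Pou3f2 had none.

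Dlx and Msx genes, which act downstream of BMP signals in many mesenchymes, were the members with 2 of 3 tested genes lower in mK4 and none higher. Msx1 had 198, 126 and 224 counts in mK3 against 14, 14 and 0 in mK4, a log2 difference of -4.39 ± 1.19 (edgeR adjusted p = 0.0282). Dlx2 had 74, 48 and 102 counts in mK3 against 5, 0 and 0 in mK4, a log2 difference of -5.47 ± 1.45 (edgeR adjusted p = 0.0259). The libraries of the lines did not overlap for either gene, but each call held in only 6 of 13 alternatives. The adjusted p ran from 0.000115 to 0.0934 for Msx1 and from 0.000417 to 0.0815 for Dlx2 over those alternatives, and each call was lost without mK3 replicate 1, 2 or 3 and without mK4 replicate 2. The Msx1 call was also lost without mK4 replicate 1 and the Dlx2 call without mK4 replicate 3, while without mK4 replicate 1, which held its only mK4 counts, Dlx2 was called and was at least 25.8-fold lower in mK4. Dlx1, the neighbour of Dlx2, was not called, with 11, 14 and 29 counts in mK3 against 5, 12 and 9 in mK4. Dlx5 and Msx2 had 4 counts each in all, and Dlx3 had none.

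Emx2, required for the ureteric bud and the only tested member of the Emx and Evx group, had 98, 176 and 102 counts in mK3 against 162, 173 and 133 in mK4. Its libraries overlapped and its log2 difference was 0.18 ± 0.37 (edgeR adjusted p = 0.741). Evx2 had 10 counts in all, and Emx1 and Evx1 had none.

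The paired-like group held 1 gene in each direction. Alx1, a factor of craniofacial mesenchyme, had no count in mK3 and 314, 294 and 170 counts in mK4, at least 74.0-fold higher (edgeR adjusted p = 0.00102). Shox2, known from the limb and the cardiac pacemaker, had 6.61, 7.22 and 7.76 CPM in mK3 against 3.05, 3.86 and 3.03 CPM in mK4, a log2 difference of -1.12 ± 0.18 (edgeR adjusted p = 0.0034). Shox2 overlaps the abundant gene Rsrc1, and whether the counting used strand is not known here, so reads of the pair may not be told apart; Rsrc1 was itself called lower (log2 difference -0.58 ± 0.19, edgeR adjusted p = 0.0494). Alx4, Pitx1 and Uncx had no count in any library.

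Satb1, a chromatin organiser, and Cux1, a broadly expressed cut-family factor, stood for the cut-related genes. Satb1 had 206, 150 and 177 counts in mK3 against none in mK4, at least 60.5-fold lower (edgeR adjusted p = 0.000741). Cux1 had 219, 175 and 122 CPM in mK3 against 130, 131 and 96.5 CPM in mK4, overlapping values that were not called (log2 difference -0.53 ± 0.23, edgeR adjusted p = 0.125). DESeq2 called Cux1 lower on all 6 libraries (log2 difference -0.54, adjusted p = 0.043). Without mK3 replicate 3 Cux1 was also called lower (log2 difference -0.72, edgeR adjusted p = 0.0323), and its adjusted p ran from 0.0323 to 0.306 over its alternatives. Cux2 had 3 counts in all.

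Among the remaining genes, Meox2 and Barx2 were higher in mK4 with uneven libraries. Meox2, a factor of somite and vascular mesenchyme, had no count in mK3 and 240, 61 and 662 counts in mK4, or 2.19 ± 2.04 CPM (SD, n = 3). It was at least 90.6-fold higher (edgeR adjusted p = 0.0101), and at least 44.7-fold higher without mK4 replicate 3. Barx2, a factor of muscle and epithelial buds, had no count in mK3 and 271, 890 and 273 counts in mK4, at least 133-fold higher (edgeR adjusted p = 0.00268), and at least 78.8-fold higher without mK4 replicate 2. In both genes all 3 mK4 libraries had counts, and their order differed between the genes. Hhex was not called, with 0.159 ± 0.0222 CPM in mK3 against 0.263 ± 0.0317 CPM in mK4 (SD, n = 3; edgeR adjusted p = 0.281), although its libraries did not overlap. Meox1, also a nephron progenitor marker, had 16 counts in all, from 1 mK4 library, and Barx1 had 6, from 1 mK3 library.

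**Figure D3:**
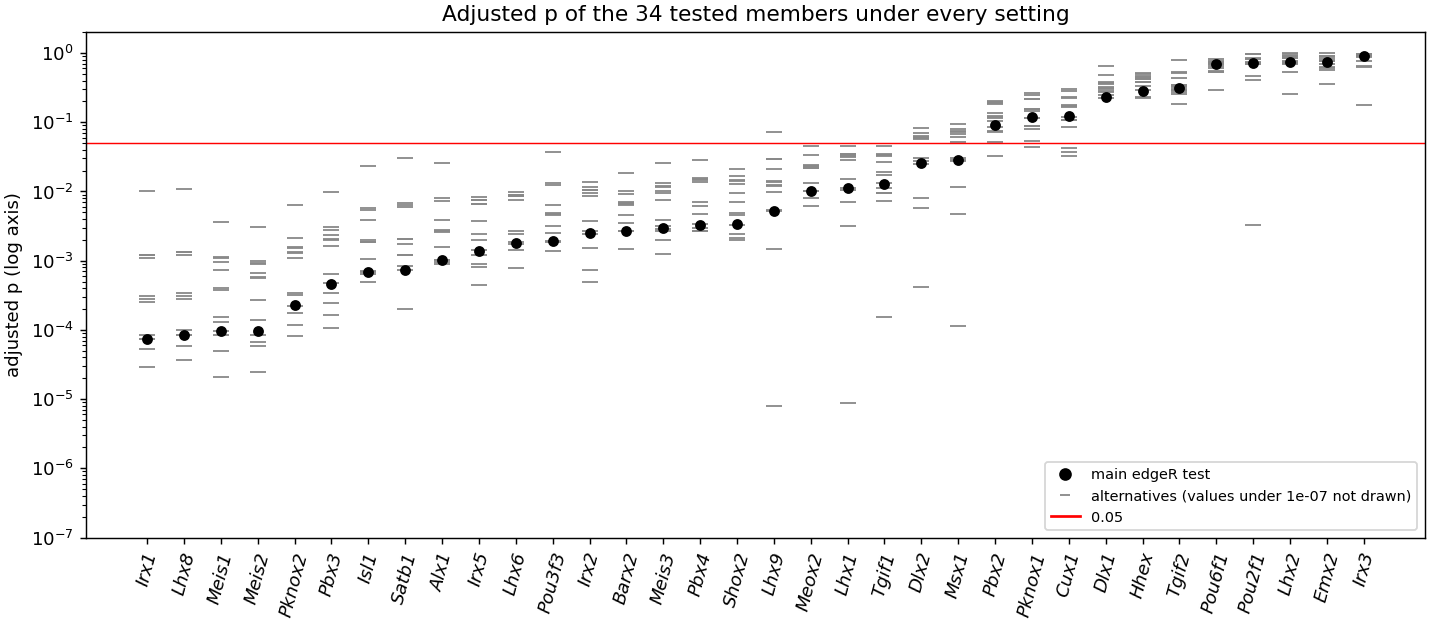
Adjusted p of the 34 tested members on a log axis, ordered by the main edgeR test (black points), with 13 or 14 alternatives each (grey ticks) and the threshold of 0.05 (red line); 18 DESeq2 values under 1e-07 are not drawn. Ticks of Lhx9, Dlx2 and Msx1 cross the line from below, and those of Pbx2, Pknox1, Cux1 and Pou2f1 from above.

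Accessible chromatin was then read at the same genes. Fold enrichment values are those of the authors' peak lists, which held 22516 peaks in mK3 and 34756 in mK4. With 1 ATAC library per line there is no replicate check and no test. A peak overlapped the 1 kb on either side of a listed start in 16 of 41 members in mK3 and 17 in mK4, against 41.6% and 45.8% of all 17492 protein-coding genes with a listed start. Of the 41, 12 had such a peak in both lines, 4 in mK3 only, 5 in mK4 only and 20 in neither. Over all 17492 genes, 38.6% had one in both lines, 3.04% in mK3 only and 7.22% in mK4 only. Within the gene or 1 kb of it, which could be read for all 56, there was a peak in 23 members in mK3 and 30 in mK4, against 49.4% and 56.3% of 21887 protein-coding genes, the mK4 list being the longer.

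Of the 14 members higher in mK4, 5 had a peak in or near the gene in mK3 and 10 in mK4. Of the 9 lower in mK4, 8 had one in mK3 and 5 in mK4. The share over all genes called higher or lower was not computed. This measure was added after the data were seen, so whether these counts are particular to the members was not tested. Of the members called higher, Meis3 (fold enrichment 3.96) and Pou3f3 (2.97) had a gene-start peak in mK4 only. Of those called lower, Meis1 (4.08), Msx1 (5.66) and Dlx2 (2.42) had one in mK3 only. The peaks of Meis1 and Msx1 reached a −log10 q of 10 (11.2 and 17.3). Those of Meis3 (7.1), Pou3f3 (3.5) and Dlx2 (2.5) were weaker and did not. Dlx2 also had a stronger peak just past the end of the gene in both lines, at 5.35 in mK3 and 3.67 in mK4. In or within 1 kb of Meis1, 4 peaks were listed in mK3, with fold enrichments of 4.08 to 5.96, and none in mK4. Meis2 had 4 peaks in each line, 3 of them overlapping, and its start counted as having a peak in mK4 only because the mK3 peak there lay just outside 1 kb. Satb1, silent in mK4, had a single peak inside the gene in mK3 (3.95), and Lhx8, Barx2 and Isl1, silent in mK3, each had a single peak in or near the gene in mK4, at 3.00, 3.81 and 3.45.

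The peak lists differ in scale, with a median fold enrichment of 4.25 in mK3 and 4.72 in mK4 and a 90th percentile of 7.11 and 8.52. Several starts with a peak in both lines belonged to genes with different RNA levels. The Irx2 start peak had a fold enrichment of 3.81 in mK3 and 6.68 in mK4, that of Pbx4 4.78 and 9.20, and the peak beside Pbx3 5.46 and 9.97. Lhx6, whose RNA was lower in mK4, had a start peak at 4.26 in mK3 and 5.69 in mK4, and the Irx5 peak was at 7.09 in mK3 and 5.66 in mK4 while its RNA was higher in mK4. Irx3 had gene-start peaks at 8.50 in mK3 and 10.3 in mK4, although its RNA did not exceed 29 counts in any library. Irx1, Lhx1, Alx1 and Meox2, all higher in mK4, had no listed peak in the gene or within 1 kb in either line, and neither had Lhx9. Of the 13 members without a count, 3 had a peak in or near the gene in mK4 (Evx1, Lmx1a and Uncx) and none in mK3.

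**Figure D4:**
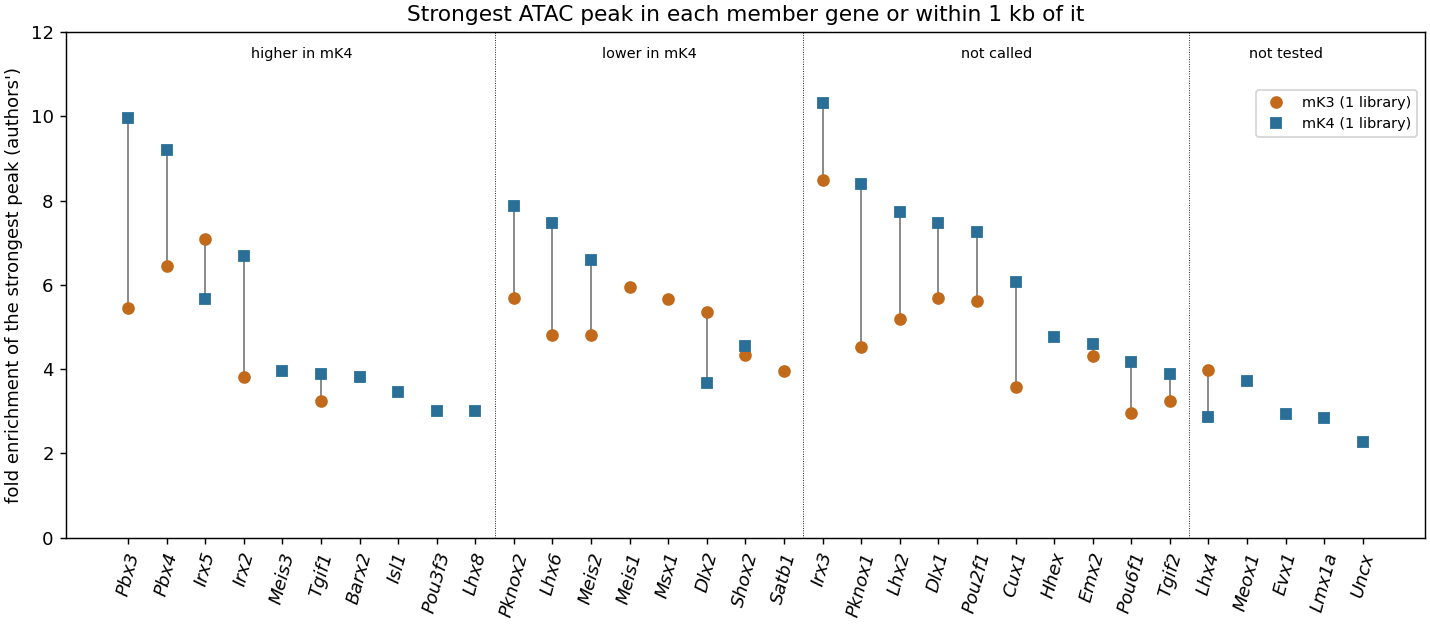
Fold enrichment (authors' values) of the strongest ATAC peak in each member gene or within 1 kb of it, in mK3 (circles) and mK4 (squares), for the 33 members with any such peak, grouped by RNA call; a line joins the values where both lines had a peak, and a missing symbol means no listed peak. Meis1, Msx1 and Satb1 show mK3 symbols only, and 5 of the members higher in mK4 show mK4 symbols only.

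The rest of the homeobox superfamily and known partners give the setting. Of 106 other homeobox genes in the table, 42 were tested, 13 higher and 9 lower in mK4, with a median log2 difference of 0.11. Among those called higher, Zfhx4 had 0.0891 ± 0.0351 CPM in mK3 against 83.6 ± 3.88 CPM in mK4 (SD, n = 3). Among those called lower, En1 was at least 149-fold lower, and Prrx1, a mesenchymal factor, had 736 ± 13.7 CPM in mK3 against 0.190 ± 0.157 CPM in mK4 (SD, n = 3). Of 8 tested cofactors of LIM proteins, 4 were higher and 1 lower, including Lmo1 and Lmo3, LIM-only competitors for Ldb1, at least 1833-fold and at least 303-fold higher in mK4, and Ssbp2 at a log2 difference of -0.51 ± 0.09. Of 6 tested Groucho co-repressors, 2 were higher (Tle6 and Aes) and 1 was lower, Tle1, with a log2 difference of -1.54 ± 0.09 (edgeR adjusted p = 6.35e-05). Of 10 tested genes of the BMP input to Msx and Dlx, 2 were higher and 5 lower. Those higher were the ligand Bmp7 (at least 63.55-fold) and Bmpr2 (log2 difference 0.17 ± 0.05). The 5 lower included the target Id3 at -1.37 ± 0.17 and the ligand Bmp4 at -2.62 ± 0.45, while the targets Id1 and Id2 were not called. The medians of these lists were 0.66, 0.05 and -0.28, against 0.02 over all tested genes.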

How the data were processed

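RNA counts per feature, not normalized, were deposited by the authors for 3 mK3 and 3 mK4 libraries; the submitters' processing notes name STAR 2.7.10a, HTSeq 2.0.2, Bowtie2, MACS3 and build mm10, without roles. For the strand setting of the counting: not given in the sources used here. ATAC peaks, 1 list per line, carry the authors' fold enrichment (a ratio) and −log10 q values, per the file headers. Library sizes were summed over the tested gene features; miRNA and circular RNA features were left out.

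Genes were filtered with filterByExpr, scaled by TMM and tested with edgeR 4.0.16's quasi-likelihood test in R 4.3.3; 20405 genes passed. An adjusted p under 0.05 was a call. CPM used TMM-scaled totals. A line at 0 in all libraries was set at a floor of 3 counts. A gene-start peak overlapped 1 kb either side of a RefSeq start by at least 1 bp; 15 members have no listed start and were read over the gene span (RefSeq, GRCm38.p6), a measure added after the data were seen. Self-tests ran on simulated counts of 20405 genes, with 200 of them changed. The test called 2 of 67 genes changed 1.5-fold, 16 of 67 changed 2-fold and 50 of 66 changed 4-fold. Far more genes were called in the real data than were changed in the simulation, so these rates need not hold there. A member that was not called may still differ. Intervals and floors cover counting error only.

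The members and lists were chosen with earlier results of these data known. Full values are given for members called with at least a 2-fold difference, or at 0 in a line with at least 100 counts in a library of the other, and the highest of each family; promoters are the called members with the greatest change and a peak over the window. Other tests tried were DESeq2 1.42.0, limma-voom (limma 3.58.1), other scalings and filters, a replicate block and each library left out. Some genes of the context lists are not reported here.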

Additional observations from a re-analysis of the deposited data

How the results depend on the processing

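The 14 higher and 9 lower calls were 14 and 9 with median-of-ratios size factors, without TMM scaling, with limma-voom and with protein-coding genes only, and 15 and 10 with DESeq2. Without a low-count filter they were 14 and 7. With at least 1 CPM in all 6 libraries, 15 members were tested and 4 were called higher and 4 lower; all 15 lost calls belonged to members no longer tested. Leaving out a library gave 14 to 15 higher and 7 to 9 lower. Over all genes, dropping TMM moved the median log2 difference from 0.02 to 0.13 and the calls from 4237 higher and 3988 lower to 4755 and 3380.

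Same-numbered libraries did not deviate together (r = -0.024, 0.011 and 0.011). The labels do not say whether a shared number marks a shared culture or day, and these few libraries cannot settle it. A replicate block gave 14 higher and 7 lower, with Lhx9 (adjusted p = 0.0718), Dlx2 and Msx1 no longer called and Cux1 called (adjusted p = 0.0373).

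With a library left out, uncalled log2 differences changed sign for Emx2 (-0.01 to 0.51), Irx3 (-0.15 to 6.68), Pou6f1 (-0.09 to 0.46) and Pou2f1 (-1.11 to 0.03). Pknox1 was called without mK3 replicate 3 (adjusted p = 0.044, range 0.044 to 0.266) and Lhx4 without mK4 replicate 3. The cause was not tested.

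Gene-start peaks were in 13 and 13 members (mK3 and mK4) for 250 bp windows, 18 and 22 for 5 kb, 16 and 16 for a 100 bp overlap, and 10 and 12 for a −log10 q of at least 10.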

Other observations

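Non-coding genes beside the members were also counted. AI606473, a lncRNA beside Lhx8, had no count in mK3 and 66, 134 and 91 counts in mK4, at least 27.2-fold higher (edgeR adjusted p = 0.00231), like Lhx8 itself. Gm20554, which overlaps Irx2, had 2, 16 and 8 counts in mK3 against 72, 97 and 92 in mK4, a log2 difference of 3.14 ± 0.80 (edgeR adjusted p = 0.0219). Pantr1, beside Pou3f3, was not tested, with no count in mK3 and 28, 24 and 0 in mK4. Gm16141, within Meis1, had 951, 746 and 644 counts in mK3 against 0, 117 and 0 in mK4 and was not called (edgeR adjusted p = 0.0982). Emx2os, beside Emx2, had 31.1 ± 7.94 CPM in mK3 against 16.8 ± 5.80 CPM in mK4 (SD, n = 3; edgeR adjusted p = 0.0553). These genes were chosen after their values were seen, and reads of overlapping genes may not be told apart.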
